A study of Mus musculus with 4 samples.

Results

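The genes described here are the basal cell keratins Krt5, Krt14, Krt15 and Krt17 with the basal cell transcription factor gene Trp63. They also include the simple epithelial keratins Krt7, Krt8, Krt18 and Krt19. Krt4, a keratin of non-keratinized stratified epithelium and of luminal airway cells, was grouped with these simple members. The genes were taken by symbol, 10 of the 24063 genes in the data. Each was represented by the RefSeq transcript on which the 4 libraries together had most counts. All mice were males of 8 weeks, of the strain given as C57BL6 in the labels and as C57BL6J in the study's methods. Lung ECs were taken with beads coated with antibody to CD31 either 7 days after left pneumonectomy (PNX) or from sham-operated mice, which had the chest opened without PNX. Each group had 2 libraries. By the study's methods each library pooled cells of 2 mice, which would make the spread between libraries one between pools of animals. This spread was small, with a median SD over genes of 0.0361 on the log2 scale. The squared difference between libraries was on average 1.74 (sham) and 1.51 (post-PNX) times that of counting error alone. Small differences between groups can therefore reach low p-values. The data do not show whether the libraries of a group came from separate pools, so the SDs may hold little variation between animals.

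Keratins are the intermediate filament proteins of epithelial cells. A filament is built from pairs of 1 type I and 1 type II keratin, and the pair in use differs between epithelia. Basal cells of stratified and airway epithelium use Krt5 (type II) with Krt14 (type I) and depend on Trp63, whereas Krt8 (type II) with Krt18 (type I), joined by Krt7 and Krt19, make the filaments of simple epithelia, among them the alveolar lining and the mesothelium that covers the lung. In the mouse genome (mm10) the type I genes Krt15 (chr11:100131759-100135949), Krt19 (chr11:100140810-100145926), Krt14 (chr11:100203162-100207510) and Krt17 (chr11:100256215-100261029) lie together. The type II genes Krt7 (chr15:101412403-101427806), Krt5 (chr15:101707069-101712905), Krt4 (chr15:101918535-101924735) and Krt8 (chr15:101996711-102004342) form the other cluster, with the type I gene Krt18 (chr15:102028216-102032026) beside them, and Trp63 lies at chr16:25683763-25892088.

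The libraries held between 41367438 and 50952879 counts with 1 transcript per gene, and 3 counts, taken as the limit of detection, corresponded to between 0.0589 and 0.0725 CPM (counting error only). Normalized counts below are counts scaled by edgeR's TMM factors to the mean library size, and are compared between groups for 1 gene at a time. A gene was called when its log2 fold change lay beyond 1 and its adjusted p was under 0.01 (edgeR, quasi-likelihood, Benjamini-Hochberg over the 16208 genes tested), thresholds taken from the study. Calls were made for 957 higher genes (5.9%) and 269 lower genes (1.66%), in all 7.56% of those tested, so that 78.1% of calls were higher, or 94.1% when libraries were scaled to 12 endothelial genes, which shifted the median of all genes by 0.26 on the log2 scale. All 12 endothelial markers were detected in every library, Pecam1 (CD31, used for the selection) at 90946 ± 240 normalized counts in sham ECs and 90400 ± 294 in post-PNX ECs (SD, n = 2). Their median log2 fold change was -0.25, from -0.54 in Eng to 0.11 in Emcn, with -0.22 in Cdh5, which had the most counts and encodes VE-cadherin. RNA of other cells was present as well. Ptprc, which encodes the leukocyte antigen CD45, had 11566 ± 44.1 and 11543 ± 171 normalized counts (SD, n = 2), and the 5 leukocyte genes had a median log2 fold change of 0.01, from -0.14 in Coro1a to 0.30 in Cd53, with 0.16 in Laptm5, which had the most counts. Among epithelial genes stood Sftpc, the surfactant protein C gene of alveolar type 2 cells, at 171015 ± 364 in sham and 111027 ± 532 after PNX (SD, n = 2).

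The basal members moved apart after PNX. Krt14 rose 11.6-fold, its filament partner Krt5 fell 5.59-fold, Krt15 fell 3.17-fold, and Trp63 was at nearly the same mean level in both groups. Of the 5 basal members 4 passed the filter on low counts, with Krt14 called higher (5.9% of all genes tested were) and Krt15 and Krt5 called lower (1.66% were). Krt5 passed it only through the sham libraries, where it was high, so its call is a description and is not read against that share. None of the simple epithelial members was called, and those that could be tested lay between 1.06 and 1.18 times their sham level.

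Krt14, the type I keratin of basal keratinocytes and airway basal cells, had 18 and 28 counts in sham and 264 and 233 after PNX. In normalized counts these were 16.3 and 28.5 against 259.4 and 259.6. The post-PNX libraries were almost equal, and both lay far above the sham libraries. The means were 22.4 ± 8.65 and 259.5 ± 0.138 (SD, n = 2), which is 3.55 on the log2 scale with SE 0.18 (edgeR, adjusted p = 1.2e-26). DESeq2's Wald test gave 3.55 as well (adjusted p = 2.7e-34).

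Krt5, the type II partner of Krt14, had 27 and 22 counts in sham libraries and 4 in each post-PNX library. The normalized counts were 24.5 and 22.4 in sham and 3.93 and 4.46 after PNX, and the groups did not overlap. The means of 23.4 ± 1.44 and 4.19 ± 0.372 (SD, n = 2) differed by -2.46 on the log2 scale with SE 0.47 (edgeR, adjusted p = 7.3e-06). The post-PNX level was just above the limit of 3 counts, so its size is known only roughly.

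Krt15, a type I keratin found in basal cells with Krt5, had 58.0 and 64.2 normalized counts in sham libraries and 19.7 and 18.9 after PNX. Both post-PNX libraries lay below both sham libraries and all 4 passed the filter. The difference was -1.65 on the log2 scale with SE 0.26 (edgeR, adjusted p = 1.1e-07). Under scaling to endothelial genes Krt14, Krt5 and Krt15 kept their directions at 3.81, -2.20 and -1.39. When the test asked whether the change itself exceeded 2-fold, edgeR's glmTreat, neither Krt15 (adjusted p = 0.0482) nor Krt5 (adjusted p = 0.0121) passed 0.01.

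Krt17, a type I keratin known for its induction in injured epithelium, had 3 and 8 counts in sham libraries and 2 and 1 after PNX, too few to be tested. Without the filter on low counts its log2 fold change was -1.68 (edgeR, adjusted p = 0.177). Trp63 encodes p63, the transcription factor on which basal cells depend. It had 19 and 26 counts in sham and 23 and 19 after PNX, or 17.2, 26.5, 22.6 and 21.2 normalized counts, and the post-PNX libraries lay between the sham libraries. The difference was 0.02 on the log2 scale with SE 0.33 (edgeR, adjusted p = 0.959), an error that leaves room for changes of moderate size in either direction. Trp63 transcripts begin at an upstream start (chr16, 25683765) or at an internal one (25801916), which gives the shortened p63 of basal cells. Of 8 transcripts counted, 5 held the same counts in every library, 2 of them from the upstream and 3 from the internal start, and the other 3, again from both starts, held 4, 5, 7 and 8 counts, so these counts do not separate the forms.

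**Figure D1:**
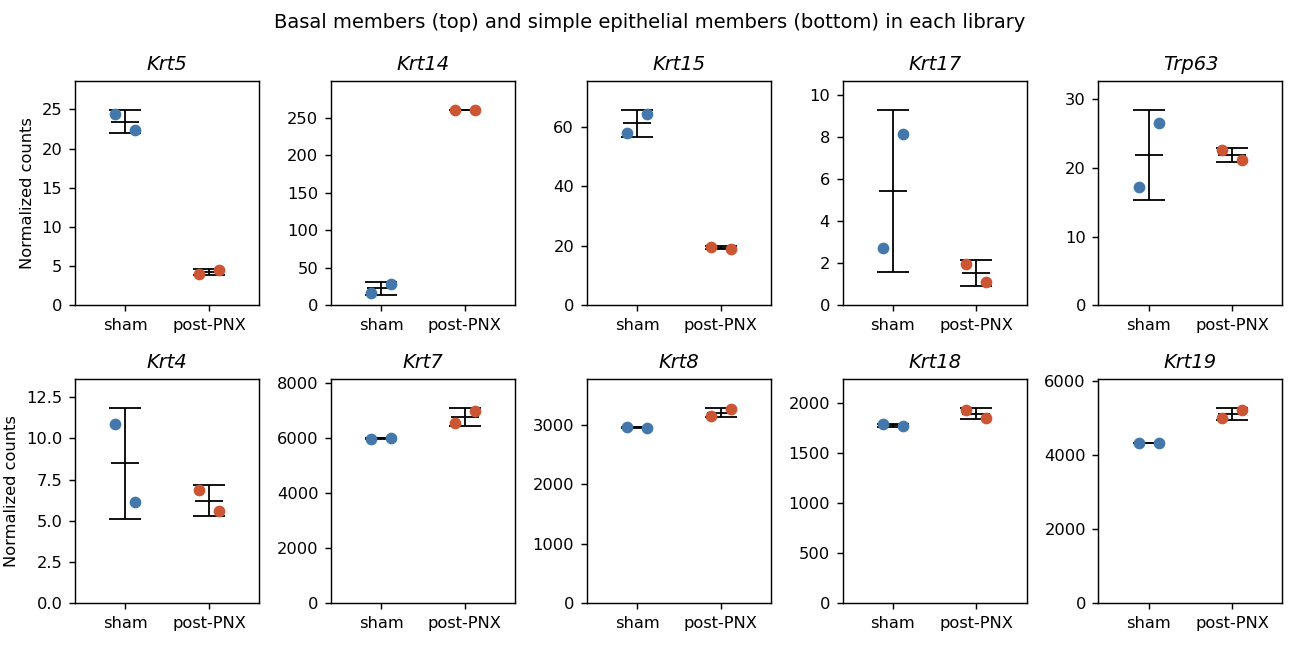
Normalized counts of the 10 members (vertical axes, each from 0) in sham and post-PNX libraries. Points are single libraries, and bars are mean ± SD of 2 libraries. Krt14 rises from 22.4 to 259.5 while Krt5 and Krt15 fall, Trp63 overlaps, and Krt7, Krt8, Krt18 and Krt19 lie slightly above their sham level.

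Reads from near-identical stretches of related keratins can be assigned to the wrong gene, so the overlap was counted on the GENCODE transcripts matched to these members. Of all windows of 75 bases in the Krt14 transcript, 5.91% were found in another gene, which was Krt16 in each case. For Krt5 this share was 5.18%, with matches in Krt6a, Krt6b and the predicted genes Gm5414 and Gm5478. Krt16 had 0, 1, 0 and 0 counts in the libraries (sham, then post-PNX) and Krt6a had 0, 0, 1 and 0. Krt8 shared 22% of its windows with its pseudogene Krt8-ps, and no window of Krt4, Krt7, Krt15, Krt17, Krt18, Krt19 or Trp63 was shared. For Krt7 the GENCODE transcript searched had 4094 bases, whereas the transcript counted had about 1586 by its FPKM. Only exact matches were counted, so stretches that differ by a base within 75 are not included. The longest exact run that Krt14 has in common with Krt16 is shown because a read inside it cannot be placed by its sequence. It lies in coding sequence, in exon 1 of Krt14 (134 bases, chr11:100207017-100207150, minus strand), and is printed 5′ to 3′ without capitals since every base is shared.
Krt14 and Krt16: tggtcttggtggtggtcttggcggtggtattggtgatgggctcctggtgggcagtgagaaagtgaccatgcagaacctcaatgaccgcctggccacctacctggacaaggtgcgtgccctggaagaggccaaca

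The tested simple epithelial keratins differed little between the groups, and in 1 direction. Krt7, a type II keratin of glandular epithelium and mesothelium, had 5953 and 5987 normalized counts in sham libraries and 6527 and 6982 after PNX. It rose by 0.18 on the log2 scale with SE 0.026 (edgeR, adjusted p = 2.3e-08). Krt19, the smallest type I keratin and a marker of simple and glandular epithelium, had 4317 and 4329 normalized counts in sham and 4985 and 5217 after PNX. Its rise of 0.24 on the log2 scale with SE 0.028 (edgeR, adjusted p = 2.7e-11) was the largest of the 4 simple members tested. In both genes the post-PNX libraries lay above the sham libraries by more than the libraries of a group differed.

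The partners Krt8 and Krt18 had lower values of this difference. Krt8 had 2970 and 2960 normalized counts in sham and 3154 and 3268 after PNX, 0.11 on the log2 scale with SE 0.032 (edgeR, adjusted p = 0.00129). With DESeq2 its adjusted p was 0.0386. Krt18 had 1788 and 1770 in sham and 1935 and 1854 after PNX, 0.09 on the log2 scale with SE 0.039, and its adjusted p of 0.0347 (edgeR) did not pass 0.01. Krt4, a type II keratin of non-keratinized stratified epithelium and of luminal airway cells, had 12 and 6 counts in sham and 7 and 5 after PNX and could not be tested. Without the filter its log2 fold change was -0.46 (edgeR, adjusted p = 0.57).

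Of the 4 simple members tested, 0 were called in either direction by edgeR or by DESeq2. All 4 had an unadjusted p under 0.05 with higher values after PNX (34.6% of all genes tested did), and 3 of them an adjusted p under 0.01 (29.3% of all genes tested were higher by this measure and 57.1% differed in either direction). Groups that do not overlap are no rare result in these libraries, since 81.2% of all genes tested had both post-PNX libraries on the same side of both sham libraries, 40.8% above and 40.5% below. The 4 genes stayed positive under every alternative, between 0.06 and 0.50 on the log2 scale, the upper values (0.35 to 0.50) under scaling to endothelial genes, where the median of all genes was 0.26.

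**Figure D2:**
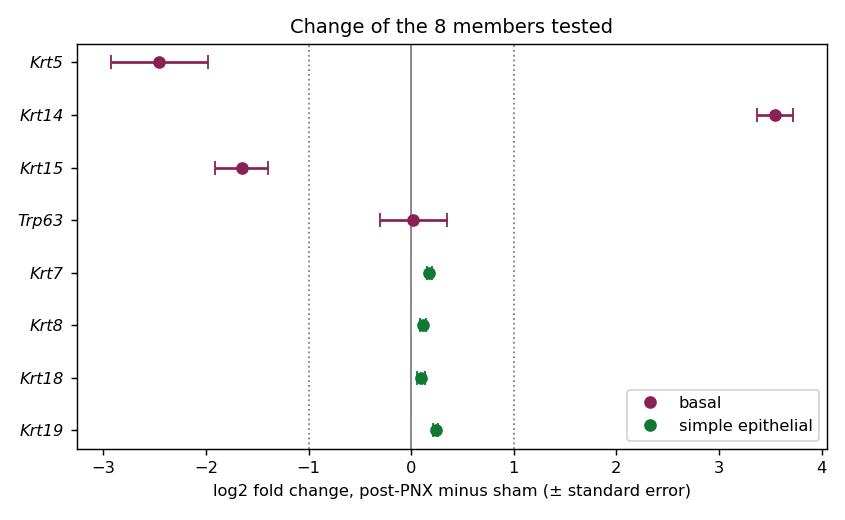
Log2 fold change (post-PNX minus sham, horizontal axis) of the 8 members tested, with bars of ± 1 standard error from edgeR's fit. Dotted lines mark the fold threshold at -1 and 1. The basal keratins lie beyond the threshold on opposite sides (Krt14 at 3.55, Krt5 at -2.46 and Krt15 at -1.65), and the simple keratins lie between 0.09 and 0.24.

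To compare genes with each other the FPKM values were used, which the authors scaled to transcript length. On this scale the 4 basal keratins together came to 0.767 and 0.953 FPKM in sham libraries and to 2.34 and 2.32 after PNX. The 5 simple keratins came to 133 and 134 in sham and to 149 and 155 after PNX. Basal keratins were thus 0.572% and 0.709% of the FPKM of all 9 member keratins in sham, and 1.55% and 1.48% after PNX.

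The balance inside the Krt5 and Krt14 pair is given as a description. The FPKM of Krt14 was 0.88 and 1.68 times that of Krt5 in the sham libraries and 87.1 and 76.8 times after PNX. The post-PNX ratios divide by Krt5 at 4 counts per library, next to the limit of 3 counts, so their size is known only roughly. An exact two-sided permutation test could not inform on the ratio, since its smallest p with 2 against 2 libraries is 0.333. No other test of the ratio was run. Krt15 stood at 3.43 and 2.17 times Krt14 in sham and at 0.0731 and 0.0704 times after PNX. The leading basal keratin was thus Krt15 in the sham libraries and Krt14 in the post-PNX libraries. In contrast, the ratio of Krt8 to Krt18 was 1.29 and 1.30 in sham and 1.26 and 1.37 after PNX, overlapping between the groups. Krt7 had 1.19 and 1.20 times the FPKM of Krt19 in sham and 1.13 and 1.16 times after PNX.

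Beyond the members, the tables held 43 other keratin genes. Of these 19 had no count in any library, 8 passed the filter on low counts, and 0 were called by edgeR or by DESeq2 (at an unadjusted p under 0.05 edgeR had 1 higher and 3 lower). The median log2 fold change of the 8 was -0.01, against 0.00 for all genes, and it was 0.25 when scaled to endothelial genes. The keratin with the highest FPKM was not a member. Krt80, a type II keratin, had 113, 115, 105 and 105 FPKM in the libraries (sham, then post-PNX), or 2.22 and 2.25 times Krt7 in sham and 1.86 and 1.74 times after PNX. Its normalized count was 14935 ± 181 in sham and 13584 ± 39.5 after PNX (SD, n = 2), a difference of -0.14 on the log2 scale (edgeR, adjusted p = 2.3e-08) that became 0.12 when scaled to endothelial genes. Krt79 (-0.13, or 0.13 under that scaling) and Krt23 (-0.56, or -0.30) followed in FPKM, both with an adjusted p under 0.01 (edgeR) and neither beyond the fold threshold. Krt78 had the highest log2 fold change of the other keratins at 0.72 (edgeR, adjusted p = 0.137). With 10 and 9 counts in sham and 15 and 14 after PNX it passed the filter only through the post-PNX libraries, so its value is a description.

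**Figure D3:**
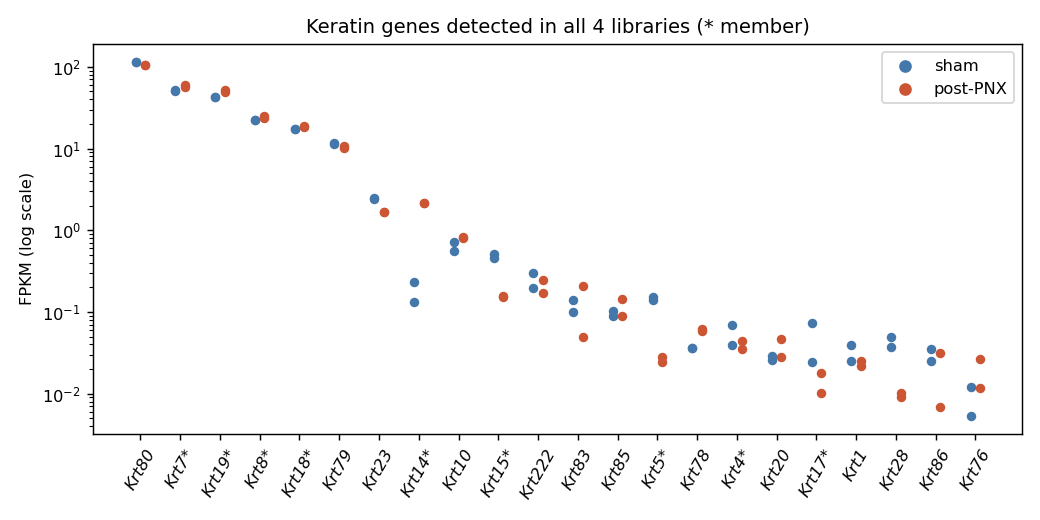
FPKM (vertical axis, log scale) of the 22 keratin genes with counts in all 4 libraries, in order of mean FPKM, with members marked by an asterisk. Points are single sham and post-PNX libraries. Krt80 leads at 105 to 115 FPKM, and the 4 abundant simple members follow between 17.2 and 60.1. Krt14 moves from 0.133 and 0.234 to 2.14 and 2.13.

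Other markers of airway basal cells did not follow a common direction. Of 11 listed genes 8 were tested, with 1 called higher (5.9% of all genes tested were) and 1 lower (1.66% were). Their median log2 fold change was -0.03 (0.23 when scaled to endothelial genes). Ngfr, the neurotrophin receptor used to sort basal cells, went from 35.3 ± 5.20 to 78.4 ± 1.05 normalized counts (SD, n = 2), 1.14 on the log2 scale (edgeR, adjusted p = 3.5e-06). Dapl1, a gene enriched in basal cells, went from 57.7 ± 8.08 to 21.8 ± 3.98 (SD, n = 2), -1.40 on the log2 scale (edgeR, adjusted p = 3.1e-06). Lamb3, which encodes a laminin chain, had the most counts, 2323 and 2108 normalized counts (log2 fold change -0.14, or 0.12 under that scaling). The desmosomal cadherin gene Dsg3, an epithelial basal marker, had 0 counts in every library, and Dsc3 and Pkp1 had at most 5.

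The markers of differentiated airway cells were lower after PNX. Of 9 secretory cell genes 8 had an adjusted p under 0.01 and lower values (edgeR), against 27.8% of all genes tested. Of these 4 were called lower (1.66% of all genes tested were), or 1 when scaled to endothelial genes (Bpifa1). The median log2 fold change was -0.98, or -0.72 under that scaling. Their summed normalized counts went from between 184981 and 185793 in sham to between 90539 and 93503 after PNX, which is 0.496 times. Scgb1a1, the club cell secretoglobin and the gene with the most counts, had a log2 fold change of -1.04 (-0.78 under that scaling), Bpifa1 had the lowest at -2.12, and Hp the highest at -0.07, which became 0.19. All 8 ciliated cell genes tested were lower at an adjusted p under 0.01 under both scalings. With TMM 3 of them were called lower (again against 1.66%) and the median was -0.89, whereas scaling to endothelial genes left 0 called and a median of -0.63. Their summed level was 0.531 times sham. Foxj1, the ciliogenesis factor and the gene with the most counts, had -0.90, Dnah5 -1.18 (-0.92 under that scaling) and Ccdc39 -0.70. These levels moved in the same direction as Krt5 and Krt15 and opposite to Krt14, and their part in the changes of these keratins was not tested. In bulk RNA, fewer cells of a type and less RNA per cell cannot be told apart.

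Mesothelial markers rose. Of 12 listed genes 11 were in the tables and 10 tested. All 10 were higher with an adjusted p under 0.01 in edgeR's test, against 29.3% of all genes tested. Of these 6 were called higher (5.9% of all genes tested were) and none lower. Scaling to endothelial genes gave 8, while all genes called higher went from 957 to 1329. Their median log2 fold change was 1.06 and their summed normalized counts went from between 11279 and 11346 to between 25286 and 25348, or 2.24 times. Wt1, a transcription factor of mesothelium, had the highest log2 fold change of this list (2.68), followed by Msln, which encodes mesothelin and had the most counts (1.97), Bnc1 (1.35), Nkain4 (1.30), Upk3b (1.08) and Lrrn4 (1.03). Gpm6a had the smallest (0.31), and Calb2, which encodes calretinin, was at 0 to 3 counts. Relative to Msln, the FPKM of Krt19 was 2.99 and 2.97 in sham and 0.872 and 0.925 after PNX, whereas that of Krt14 was 0.00936 and 0.0162 in sham and 0.0375 and 0.0381 after PNX. Beside the 11.6-fold rise of Krt14 the summed mesothelial markers thus stood at 2.24 times, and the part of mesothelial RNA in the rise was not tested.

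Alveolar and general epithelial markers had the opposite sign to the simple keratins. The 12 epithelial markers all had negative log2 fold changes (10 of 12 when scaled to endothelial genes, with Cdh1 and St14 then above 0). Their median was -0.44. Of the 12, 11 had an adjusted p under 0.01 (edgeR), where 27.8% of all genes tested were lower. Prom2, at 26.6 and 9.80 normalized counts, was called lower (-1.40) by edgeR and not by DESeq2. With 12 and 7 counts after PNX it passed the filter only through the sham libraries, where it was high, so its call is a description. Cdh1, which encodes E-cadherin and had the most counts, was at -0.25, and St14 was nearest to 0 at -0.18. All 9 alveolar type 2 genes were lower (median -0.62, from -0.71 in Sftpa1 to -0.21 in Sftpd, the latter above 0 when scaled to endothelial genes). So were 7 of 8 alveolar type 1 genes (median -0.45), with Rtkn2 at -0.99 and Clic5, which had the most counts, at -0.35. Pdpn, which mesothelium also expresses, was the exception at 0.39. Neither edgeR nor DESeq2 called any of these alveolar genes, while each had an adjusted p under 0.01 in edgeR's test (57.1% of all genes tested did). The FPKM of Krt8 was 3.08 and 3.05 times that of Epcam, the epithelial adhesion molecule, in sham and 4.66 and 4.61 times after PNX, and that of Krt19 was 0.193 and 0.194 times that of Hopx, an alveolar type 1 gene, in sham and 0.358 and 0.368 times after PNX. Summed over their lists, normalized counts after PNX were 0.792 times sham in epithelial, 0.654 times in alveolar type 2 and 0.739 times in alveolar type 1 markers, against 1.13 times in the simple keratins and 2.24 times in mesothelial markers. How much of the simple keratin RNA came from each of these cell types was not tested.

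Krt8 also marks the transitional state through which alveolar type 2 cells pass when they become type 1 cells. Of the 10 other genes listed for this state 6 were higher and 1 lower at an adjusted p under 0.01 (edgeR). Of all genes tested 29.3% were higher and 27.8% lower by this measure. The median log2 fold change of the listed genes was 0.37. The lower gene was Plaur, the urokinase receptor gene (-0.18), which turned to 0.08 when scaled to endothelial genes. Under that scaling 8 of the listed genes were higher and 0 lower, but the median of all genes was itself 0.26. The share of all genes higher under that scaling was not counted. Tnip3 was called higher at 1.44. Lgals3, which macrophages also express, had the most counts and a log2 fold change of 0.72. Sprr1a, with 42.3 and 35.2 normalized counts, was lowest at -0.25 (edgeR, adjusted p = 0.385), or 0.01 under that scaling. Sfn, which is in the basal list as well, had 0.08 (edgeR, adjusted p = 0.333), or 0.34 under that scaling (adjusted p = 0.000227). Cldn4 had -0.18 (edgeR, adjusted p = 0.500), or 0.08 under that scaling. Which cells the RNA of the listed genes came from was not tested.

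**Figure D4:**
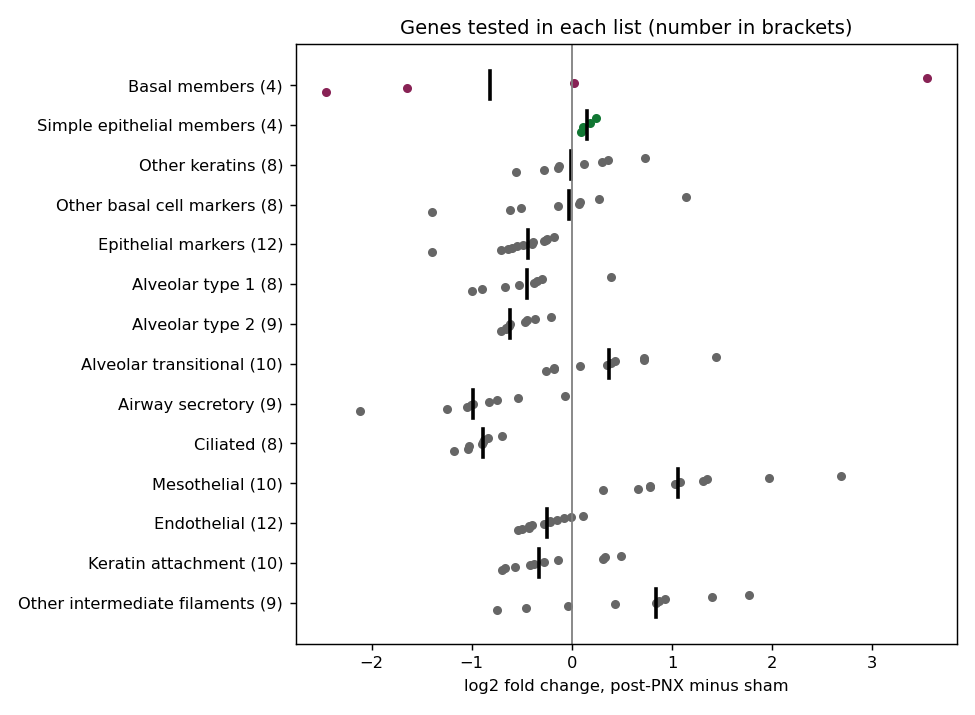
Log2 fold change (post-PNX minus sham, horizontal axis) of every gene tested in each list, with the number tested in brackets and a black bar at the median. Simple members sit between 0.09 and 0.24, and basal members spread from -2.46 to 3.55. The medians of the epithelial, alveolar type 1, alveolar type 2, airway secretory and ciliated lists lie below 0. Those of the alveolar transitional (0.37) and mesothelial (1.06) lists lie above 0. Scaling to endothelial genes did not turn the signs of the simple members or of these medians.

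Keratin filaments are anchored at desmosomes and hemidesmosomes through plakins and armadillo proteins. Of 11 genes listed for this anchorage 10 were tested and 0 were called by edgeR or by DESeq2, although all 10 had an unadjusted p under 0.05 (3 higher and 7 lower, against 34.6% and 33.6% of all genes tested). The median log2 fold change was -0.33, or -0.07 when scaled to endothelial genes, which turned the plakin gene Dst from -0.14 to 0.12. Jup, which encodes plakoglobin and is also used in endothelial junctions, had the most counts (log2 fold change -0.38). Dsg2 was highest at 0.49 and Eppk1, a plakin that binds keratins, lowest at -0.70. Among intermediate filament genes of other classes, 9 of 13 were tested and 2 called, both higher (5.9% of all genes tested were). These were the lamin genes Lmnb1 (1.76) and Lmnb2 (1.40) of the nuclear lamina. Scaling to endothelial genes gave 4, with Vim (1.10) and Lmna (1.13) added, while all genes called higher went from 957 to 1329. Vim, which encodes the vimentin filament of mesenchymal and endothelial cells, had 470 and 480 FPKM in sham and 849 and 859 after PNX (log2 fold change 0.84 with TMM), above every keratin, and Synm was lowest at -0.75.

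Krt5 and Krt7 show the contrast between a basal and a simple keratin of the same type II cluster, and their promoters are printed for that reason. RefSeq windows (mm10) at the start of the gene were found for Krt5, Krt7, Krt8 and Krt18. The 250 bases before the start are given 5′ to 3′ on the strand of the gene, Krt5 at chr15:101712906-101713155 (minus strand) and Krt7 at chr15:101412153-101412402 (plus strand), with matches to GGGCGG or its reverse complement, the core of a GC box, in capitals.
Krt5 promoter: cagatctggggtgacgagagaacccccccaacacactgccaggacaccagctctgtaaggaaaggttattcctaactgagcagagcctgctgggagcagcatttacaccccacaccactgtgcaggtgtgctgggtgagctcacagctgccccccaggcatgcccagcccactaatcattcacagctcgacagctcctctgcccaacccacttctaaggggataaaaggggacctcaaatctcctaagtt
Krt7 promoter: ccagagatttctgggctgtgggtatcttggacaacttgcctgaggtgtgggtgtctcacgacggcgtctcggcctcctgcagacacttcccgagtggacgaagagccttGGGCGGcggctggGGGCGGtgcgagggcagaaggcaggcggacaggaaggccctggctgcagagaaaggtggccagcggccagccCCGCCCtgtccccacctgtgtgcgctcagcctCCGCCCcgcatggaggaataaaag
The Krt7 window held 4 matches and the windows of Krt5, Krt8 and Krt18 held 0, while 32.7% of 32851 windows of this length in the RefSeq table held at least 1. TATAAA (12.4% of windows) and TGANTCA, the letters of an AP-1 site (6.75%), were searched on both strands, did not overlap the GC boxes, and were in none of these 4 windows.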

How the data were processed

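Polyadenylated RNA of CD31-selected lung cells was sequenced as paired ends after a stranded library protocol, and the submitters' processing notes name STAR and mm10; the counting program is not given in the sources used here. The authors deposited counts on 33068 RefSeq transcripts per library, without normalization, and FPKM and TPM values beside them. Transcripts of the same gene often hold the same count. The deposited FPKM was used to compare genes, and the deposited TPM was not used.

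Differences in counts were tested with edgeR 4.0.16 in R 4.3.3 (filterByExpr with a minimum count of 10, TMM, quasi-likelihood test), and DESeq2 1.42.0 as an alternative. Fold changes are post-PNX over sham, and a standard error is the log2 fold change divided by the square root of F. Steps were tested on simulated data. The members and the lists of other genes were chosen with earlier results of these data known. Named from each list were its most abundant gene, the genes with the highest and the lowest log2 fold change and, in some lists, every called gene. Ratios to Msln, Epcam and Hopx, Vim beside the keratins, Plaur, Cldn4, Dst and Lmna, and the values of list genes under endothelial scaling were added after the values were seen. Sequences came from RefSeq (promoters) and GENCODE M21 (transcripts).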

Additional observations from a re-analysis of the deposited data

How the results depend on the processing

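The call of Krt14 held under all 14 alternatives, between 3.18 and 3.98 on the log2 scale, the range set by leaving out each library in turn. Krt5 and Krt15 were called lower in each alternative that tested them except edgeR's glmTreat, where their log2 fold changes of -2.46 (adjusted p = 0.0121) and -1.65 (adjusted p = 0.0482) fell short of 0.01, so that 0 basal members were called lower. With a mean of at least 50 counts the number was also 0, since neither was tested, and the basal median became 3.55, the value of Krt14. Krt5 passed the filter on low counts only through the sham libraries, where it was high, so its calls are a description. Trp63 lay between -0.27 and 0.35 when libraries were left out. Over all genes, glmTreat called 604 higher and 39 lower, a mean of at least 50 counts left 160 lower, and scaling to endothelial genes left 84 lower. That scaling turned the medians of other basal markers (0.23), other keratins (0.25) and endothelial genes (0.0131) positive. No filter gave 0.0753 for other basal markers and 0.21 for other keratins, and the mean of 50 counts gave 0.0785 for the former. Leaving out libraries moved the leukocyte median between -0.00691 and 0.0342 and that of other keratins between -0.10 and 0.10. The labels give replicate numbers without saying that they pair animals or batches. Deviations of same-numbered libraries had a correlation of 0.030 over genes, which cannot settle that question. The replicate block called 957 genes higher and 272 lower and changed no call of a member (Krt14 3.55, Krt5 -2.46, Krt15 -1.65). Levels under about 10 counts, as in Krt17, Krt4 and post-PNX Krt5, are limited by depth.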
